A study of Mus musculus with 4 samples.

Results

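The genes described here are 9 transcription factor genes known for setting the identity of innate lymphoid cells (ILC): Rora, Ahr, Tbx21, Eomes, Gata3, Maf, Tox2, Tcf7 and Zbtb16. They were picked by name and by no cut-off on their values, but with earlier results of these data known. They are 9 of the 23253 genes listed in at least 1 of the tables used. All 9 had a count in kept cells of replicate 1. In replicate 2 the number was 8, because Eomes was at 0 in every kept cell. The cells were sorted as group 3 ILC (ILC3) from the lamina propria, the connective tissue layer under the gut epithelium, of the small intestine of C57BL/6 mice aged 6 to 8 weeks. No treatment, transgene or deletion is named for them, and the antibodies of the sort are not given in the sources used here. There were 2 replicates, each the cells that carried 1 antibody-linked sample tag, pooled with cells of other tags and captured in the microwells of a BD Rhapsody cartridge. The labels name sample tag 4 for replicate 1, but 0 cells were called with it and the deposited tag list gives tag 8, so the cells of tag 8 were used; replicate 2 is tag 12 in both. Neither the number of mice nor whether the replicates are different mice is given, so the p-values below rest on a spread between 2 samples that can be purely technical.

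ILC lack rearranged antigen receptors and are sorted into groups by the factors and cytokines they share with helper T cells. ILC1 and natural killer (NK) cells depend on T-bet, encoded by Tbx21, and NK cells also on Eomes. ILC2 depend on high GATA3 together with RORα, encoded by Rora. ILC3 of the gut make interleukin-22, need the aryl hydrocarbon receptor (Ahr), a sensor of dietary and microbial ligands, and come as CCR6+ lymphoid tissue inducer-like cells and as cells bearing the receptor NKp46, encoded by Ncr1, whose fate depends on the balance of T-bet and c-MAF. TCF-1 (Tcf7), TOX2 and PLZF (Zbtb16) are better known from the development of ILC precursors, although each is also used by T-cell subsets.

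Each member was followed in 6 gates drawn on counts of other genes. A cell was CD3+ with any count of Cd3d, Cd3e, Cd3g or Trac. The T-cell gates were Cd4+ CD3+ (848 cells in replicate 1 and 895 in replicate 2), Cd8a+ CD3+ (430 and 175) and Trdc+ CD3+, which takes γδ T cells (497 and 150). The CD3- gates were Ccr6+ (174 and 819), Ncr1+ (173 and 145) and Il22+ cells with neither Ccr6 nor Ncr1 (1082 and 1752), called the Il22+ gate from here on. Together they held 3108 of 5054 kept cells in replicate 1 and 3878 of 4989 in replicate 2, and 93 and 58 cells met more than 1 gate. Ccr6 and Ncr1 were found together in 3 and 4 CD3- cells.

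The label ILC3 did not hold for all cells. A CD3 gene was found in 57.3% of kept cells of replicate 1 and in 32.4% of those of replicate 2. In the CD3- gates all 4 genes of the CD3 rule are at 0 by construction, and 5 genes listed as ILC3 markers (Il23r, Il1r1, Tnfsf11, Kit and Lta) summed to between 8.70 and 34.0 counts per 10000, against 1.42 to 7.81 in the CD3+ gates. At least 2 of those 5 were found in 5.90% and 13.5% of Cd4+, 4.65% and 8.57% of Cd8a+ and 30.4% and 27.3% of Trdc+ cells. Cd4 had a count in 7.08% of CD3- cells of replicate 1 and 26.9% of those of replicate 2. A Cd4 count therefore does not by itself mark a T cell. Whether the Cd4+ gate holds ILC3 with a stray CD3 count was not tested. Of the kept cells, 398 in replicate 1 and 66 in replicate 2 carried at least 3 of 6 stromal genes (Col1a1, Col1a2, Col3a1, Dcn, Sparc and Bgn). They made up 4.99% of the Il22+ gate in replicate 1, between 1.63% and 2.30% of the other gates there, and at most 0.799% of any gate in replicate 2. Over all gates and replicates, myeloid markers summed to 1.60 to 9.08 counts per 10000, epithelial markers to 0.0193 to 0.479, B/plasma markers to 0.252 to 14.0 and ILC2 markers to 0.183 to 2.98. Stromal markers had the widest range, from 0.205 to 58.7, with the highest sums in the Il22+ gate (58.7) and the Cd4+ gate (20.4) of replicate 1. Of the stromal-marker cells themselves, 18.6% and 28.8% had a count of Il22 and 21.1% and 18.2% one of a CD3 gene, so an Il22 count does not by itself mark an ILC3. Whether these counts came from free RNA or from doublets was not tested. Replicate 1 was deposited in reads per cell (gate medians from 4588.5 to 5382) and replicate 2 in molecules per cell (1774 to 2785), whereas stromal-marker cells had medians of 9388.5 reads and 4760 molecules. Shares of cells are therefore compared within a replicate only, with 95% Wilson intervals that cover counting error only, since reads of 1 molecule are not independent.

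Rora, which encodes the nuclear receptor RORα, was detected in most cells of the CD3- gates. It had a count in 93.1%, 88.4% and 94.5% of the Ccr6+, Ncr1+ and Il22+ cells of replicate 1 and in 93.0%, 95.2% and 93.5% of those of replicate 2. In the Cd4+ and Cd8a+ gates the shares were 57.9% and 55.3% in replicate 1 and 72.0% and 65.7% in replicate 2, and Trdc+ cells lay between, at 82.5% and 90.0%. At full depth the shares of the Cd4+ and Cd8a+ gates were no higher than those of the deeper stromal-marker cells (64.3% and 74.2%). That cell type can express Rora itself, and the full-depth Cd4+ and Cd8a+ shares are not read as expression on their own. With cells of a replicate thinned to a fixed depth, Cd4+ cells had 54.5% and 64.4% and Cd8a+ cells 48.1% and 60.5%. Stromal-marker cells then had 46.6% and 46.0%. In replicate 1 the thinned Cd8a+ interval (Wilson 43.3% to 53.0%) holds the stromal-marker share.

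The summed counts of each gate and replicate, in which cells of more than 1 gate are left out, give the levels. In CPM (counts scaled to a common total over the genes that passed the filter), Rora stood at 2976, 2307 and 3213 in the Ccr6+, Ncr1+ and Il22+ sums of replicate 1 and at 1614, 2163 and 2020 in those of replicate 2. The Trdc+ sums reached 2004 and 1873, the Cd4+ sums 857 and 1024, and the Cd8a+ sums 682 and 817. Neither Cd4+ nor Cd8a+ sums overlapped with any of the other gates. The mean of the CD3- gates exceeded that of the CD3+ gates by 1.08 on the log2 scale (SE 0.13, 2.11-fold), which passed the quasi-likelihood test of edgeR (adjusted p = 5.55e-06, Benjamini-Hochberg over 10512 genes). Replicate 1 alone gave a difference of 1.41 and replicate 2 alone 0.70. Rora also rose in Trdc+ cells against the mean of the other T-cell gates, by 1.20 (SE 0.18, adjusted p = 0.000343 in the same test). Among the CD3- gates no Rora difference passed: Ncr1+ against Ccr6+ gave -0.37 in replicate 1 and 0.47 in replicate 2.

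Tbx21 and Eomes encode the T-box factors of ILC1, NK cells and cytotoxic T cells, and they differed in reach over the 6 gates. The gene Tbx21 lies on chromosome 11 (GRCm38, 97098071 to 97115331, minus strand) with no overlapping annotated gene, and Eomes on chromosome 9 (118478212 to 118486132, plus strand), where Gm33460 is annotated on the other strand. Whether the counting used strand is not given in the sources used here. The 250 bases before the RefSeq transcription start (GRCm38.p6) are shown for this pair, as relatives that differed in reach, and for Rora, as the member found in most CD3- cells. Capitals mark matches, on either strand, to 10 short motifs: AGGTGTG (the T-box motif), AGATAA (of GATA factors), AGGTCA (of ROR factors), CTTTGA (of TCF factors), TGCTGA (of MAF factors), GCGTG (of AHR), TGTGGT (of RUNX factors), GGGCGG (the GC box), TATAAA (the TATA box) and CCAAT (the box of that name).
Tbx21 (chr11:97115332-97115581, minus strand): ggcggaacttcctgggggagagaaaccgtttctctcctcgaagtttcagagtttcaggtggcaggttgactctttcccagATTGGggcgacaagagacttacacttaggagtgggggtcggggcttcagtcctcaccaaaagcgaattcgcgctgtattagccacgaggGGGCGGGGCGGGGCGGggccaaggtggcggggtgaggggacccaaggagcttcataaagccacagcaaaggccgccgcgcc
Eomes (chr9:118477939-118478188, plus strand): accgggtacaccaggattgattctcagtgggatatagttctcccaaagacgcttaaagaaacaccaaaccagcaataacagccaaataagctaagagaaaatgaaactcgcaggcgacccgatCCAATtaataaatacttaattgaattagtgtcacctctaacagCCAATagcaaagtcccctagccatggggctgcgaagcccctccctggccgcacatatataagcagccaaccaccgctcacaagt
Rora (chr9:68653536-68653785, plus strand): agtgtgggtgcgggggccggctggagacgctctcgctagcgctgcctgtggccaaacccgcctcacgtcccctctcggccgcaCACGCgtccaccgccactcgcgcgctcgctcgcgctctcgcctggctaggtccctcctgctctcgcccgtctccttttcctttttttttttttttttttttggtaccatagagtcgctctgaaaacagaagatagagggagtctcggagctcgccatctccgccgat
The Tbx21 window holds 3 GC boxes that overlap each other and 1 CCAAT box, the Eomes window 2 CCAAT boxes, and the Rora window 1 AHR match. None of the 3 windows holds the T-box, GATA, ROR, TCF, MAF, RUNX or TATA letters. Of all 32851 mouse promoter windows of that length, 32.7% hold a GC box, 33.8% a CCAAT box and 28.2% the AHR letters. G and C make up 60.8% of the Tbx21 window, 46.4% of the Eomes window and 61.2% of the Rora window, against a median of 52.4% over all windows. A match is a string of letters and not a measured binding site.

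Tbx21 marked the Ncr1+ gate among the CD3- cells. It had a count in 23.1% of Ncr1+ cells of replicate 1 (Wilson 17.5% to 29.9%) and 25.5% of those of replicate 2 (19.1% to 33.2%). In Ccr6+ cells the shares were 2.30% and 1.95%, and in the Il22+ gate 4.34% and 2.51%, close to the 2.51% and 1.52% of stromal-marker cells. After every cell was thinned to 3000 reads or 1500 molecules, 18.7% and 19.8% of Ncr1+ cells still had a count, against 0 of 166 and 1.14% of Ccr6+ cells. The 3 T-cell gates lay between 10.1% and 17.7% in both replicates, so T-bet transcripts were spread over T cells as well.

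In the sums, Tbx21 stood at 117 and 128 CPM in Ncr1+ cells of replicates 1 and 2, against 6.40 and 7.80 in Ccr6+ cells and 23.2 and 10.1 in the Il22+ gate. The Ncr1+ sums were the highest of all 6 gates in both replicates and overlapped with none of them. Cd8a+ sums held 94.9 and 63.1 CPM, Cd4+ sums 82.5 and 59.1, and Trdc+ sums 47.0 and 52.8. Against Ccr6+ cells, Ncr1+ cells were higher by 3.94 (SE 0.39, 15.4-fold) with an adjusted p of 3.84e-05 by edgeR's quasi-likelihood test, and each replicate alone gave 4.03 and 3.89. Against the Il22+ gate the difference was 2.87 (SE 0.31, 7.30-fold, adjusted p = 6.37e-05 in edgeR), with 2.29 and 3.57 in the single replicates. Taking the CD3- gates as a mean, Tbx21 was lower than in the CD3+ gates by 1.36 (log2 -1.36, SE 0.20, edgeR adjusted p = 5.98e-05).

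Eomes counts were found in replicate 1 only. There it had a count in 58 of 430 Cd8a+ cells, or 13.5% (Wilson 10.6% to 17.0%), in 7 of 848 Cd4+ cells, 5 of 497 Trdc+ cells, 3 of 173 Ncr1+ cells and 5 of 1082 Il22+ cells. None of 174 Ccr6+ cells had one, which allows a share of up to 1.72%. Of the other gates none stood above the 1.01% of stromal-marker cells by more than counting error, so only the Cd8a+ share is read as expression. In replicate 2 there were 0 counts in 4989 cells, which allows a share of up to 0.0601%, and 0 of 175 Cd8a+ cells, which allows up to 1.71%. The 2 replicates differ in unit and depth, so these shares are given side by side.

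The Eomes sums held 241 reads in Cd8a+ cells of replicate 1, or 120 CPM, and 24, 13, 12 and 18 reads in the Cd4+, Trdc+, Ncr1+ and Il22+ sums. edgeR called Eomes higher in Cd8a+ than in Cd4+ cells (adjusted p = 0.00832) and lower in the CD3- than in the CD3+ gates (adjusted p = 0.00390), both on replicate 1 alone. DESeq2's Wald test called neither (adjusted p = 0.97 and 0.540; over 9 alternatives 7.09e-07 to 0.97 and 6.36e-05 to 0.540). The replicate 1 difference between Cd8a+ and Cd4+ cells was 4.20 on the log2 scale, and no value can be given without that replicate.

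Tox2 and Tcf7 encode HMG-box proteins of ILC and T-cell development, and both were higher in Ccr6+ than in Ncr1+ cells. Tox2 had a count in 27.6% (Wilson 21.5% to 34.7%) and 30.9% (27.8% to 34.1%) of Ccr6+ cells, and in 14.2% and 21.8% of the Il22+ gate. Only 5.78% and 4.14% of Ncr1+ cells had one, and 0.571% to 7.90% of the T-cell gates. Stromal-marker cells reached 1.01% in replicate 1 but 10.6% (7 of 66) in replicate 2, so a Tox2 share below that in replicate 2 is not read as expression. Thinned to a fixed depth, the Ccr6+ shares were 18.7% and 17.9% and the Ncr1+ shares 2.41% and 2.38%. Stromal-marker cells then had 0.265% and 3.17%.

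Ordered by level, Tox2 stood at 159 and 147 CPM in the Ccr6+ sums, 102 and 116 in the Il22+ gate, 46.8 and 30.7 in Cd4+ cells and 23.1 and 17.5 in Ncr1+ cells. None of these neighbours overlapped over the replicates. The lowest sums were those of Cd8a+ cells (27 reads and 0 molecules) and Trdc+ cells (2 reads and 4 molecules). Tox2 fell in Ncr1+ against Ccr6+ cells (log2 -2.87, SE 0.46, edgeR adjusted p = 0.00156) and against the Il22+ gate (log2 -2.38, SE 0.46, adjusted p = 0.00648), and the replicates alone gave -2.74 and -2.94 for the first of these. DESeq2's Wald test kept both sizes (-2.89 and -2.38) but called neither (adjusted p = 0.147 and 0.363); over 9 tested alternatives the adjusted p ran from 2.88e-14 to 0.147 and from 7.49e-10 to 0.363. Tox2 rose in the CD3- against the CD3+ gates by 2.73 (SE 0.34, edgeR adjusted p = 8.40e-06), a call that all 9 alternatives made.

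Tcf7 was found in every gate, from 29.4% of Trdc+ cells of replicate 1 to 70.1% of Ccr6+ cells of replicate 2, against 11.8% and 18.2% of stromal-marker cells. Ccr6+ cells had the highest share in both replicates (54.6% and 70.1%), in replicate 1 with an interval (47.2% to 61.8%) that holds the Cd8a+ share of 52.6%, and Ncr1+ cells the lowest of the CD3- gates (32.9% and 49.7%). Levels in the sums were 492 and 586 CPM in Ccr6+, 391 and 492 in Il22+ and 235 and 364 in Ncr1+ cells, and 486 and 453 in Cd8a+, 311 and 378 in Cd4+ and 210 and 252 in Trdc+ cells. The Ccr6+ sum was the highest within each replicate, by little over the Cd8a+ sum in replicate 1. The Cd8a+ and Il22+ sums overlapped, as did the Cd4+ and Ncr1+ sums and the Ncr1+ and Trdc+ sums. Tcf7 fell in Ncr1+ against Ccr6+ cells by 0.88 (log2 -0.88, SE 0.18, edgeR adjusted p = 0.00694), with -1.06 and -0.64 in the single replicates. It also fell in Trdc+ cells against the other T-cell gates (log2 -0.82, SE 0.16, adjusted p = 0.00285 in edgeR). Against the Il22+ gate the Ncr1+ value of -0.59 (SE 0.17) did not pass (edgeR adjusted p = 0.0784). Without the replicate as a block neither of the 2 calls was made (adjusted p = 0.249 and 0.121 in edgeR; over 9 alternatives 0.000316 to 0.249 and 7.08e-05 to 0.121).

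Maf, the gene of c-MAF, which drives interleukin-10 and follicular helper programmes in Cd4+ T cells and restrains T-bet in ILC3, separated the T-cell gates. It had a count in 77.6% and 81.5% of Cd4+ cells but in 16.3% and 36% of Cd8a+ cells. Trdc+ cells (63.4% and 67.3%) and the CD3- gates (62.8% to 76.6%) lay close to each other. At full depth the Cd8a+ shares were below the 41.5% and 54.5% of the deeper stromal-marker cells. Thinned to a fixed depth, Cd8a+ cells had 12.4% and 30.9% and stromal-marker cells 26.2% and 28.6%. In the sums the Cd4+ cells held 1581 and 1652 CPM and the Cd8a+ cells 134 and 255. The Trdc+ sums held 1020 and 1191, and the 6 sums of CD3- gates stayed within 752 to 861.

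Cd8a+ cells had less Maf than Cd4+ cells by 3.15 on the log2 scale (log2 -3.15, SE 0.21, 8.86-fold, edgeR adjusted p = 2.33e-07), with -3.55 and -2.70 in the single replicates. Trdc+ cells exceeded the mean of Cd4+ and Cd8a+ cells by 1.02 (SE 0.16, edgeR adjusted p = 0.000402). That mean lies between 2 unlike gates, and the Trdc+ sums were below the Cd4+ sums in both replicates. With cells of more than 1 gate kept, the value was 0.67 and no longer passed (edgeR adjusted p = 0.0549; over the alternatives 1.97e-10 to 0.0549). Between the CD3- gates Maf differed by at most 0.15 (SE 0.18), and the adjusted p-values of edgeR were 0.754 or higher.

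Ahr, the gene of the aryl hydrocarbon receptor, had its highest share in Cd4+ cells of replicate 1 and in Cd8a+ cells of replicate 2. A count was found in 18.5% and 19.6% of Cd4+ cells and in 13.3% and 24.6% of Cd8a+ cells. The CD3- gates had 13.2%, 11.6% and 9.98% in replicate 1 and 9.04%, 4.83% and 7.99% in replicate 2 (Ccr6+, Ncr1+ and Il22+). Stromal-marker cells had 5.78% and 6.06%, so the Ncr1+ share of replicate 2, 7 of 145 cells, is at that background. Levels were 92.6 and 110 CPM in Cd4+ and 56.4 and 141 in Cd8a+ sums, 53.8 and 79.1 in Trdc+ sums, 64.0 and 42.3 in Ccr6+, 60.4 and 37.7 in Il22+ and 51.2 and 23.3 in Ncr1+ sums. Neighbouring gates overlapped throughout that order. Ahr fell in the CD3- against the CD3+ gates (log2 -0.77, SE 0.24, edgeR adjusted p = 0.0208), but the size came from replicate 2 (-1.67) far more than from replicate 1 (-0.17). With at least 2 counts required of the gate gene, the difference was -0.65 and did not pass (edgeR adjusted p = 0.0542; 6.26e-05 to 0.0542 over 9 alternatives), and without the replicate block -0.85 did not pass either (0.0532).

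Of 11 genes listed for the AHR pathway, 7 could be tested. Tiparp, a target gene that limits the receptor, rose in the CD3- gates by 0.99 (SE 0.10, edgeR adjusted p = 1.58e-06), opposite in sign to Ahr. Hsp90ab1, which encodes a chaperone of the unbound receptor, rose by 0.39 (SE 0.06, adjusted p = 4.58e-05 in edgeR). The other 5 did not pass, so 2 of 7 were called where edgeR called 30.5% of all genes, a share near that background, and the median of the 7 was -0.0030 against 0.01 over all genes tested.

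Gata3 was low and even across the gates. Shares ran from 12.0% to 22.4% over the 12 gate and replicate combinations, against 4.27% and 6.06% of stromal-marker cells. Levels ran from 78.1 CPM in Cd8a+ cells of replicate 2 to 138 in Cd4+ cells of replicate 1. No Gata3 difference passed in any of the 6 comparisons; the largest was -0.63 (SE 0.24) for Cd8a+ against Cd4+ cells (edgeR adjusted p = 0.273). CD3- cells with at least 2 of 6 ILC2 genes (Il1rl1, Il13, Il5, Calca, Il17rb and Areg), 24 in replicate 1 and 20 in replicate 2, had Gata3 in 87.5% (Wilson 69% to 95.7%) and 75.0% (53.1% to 88.8%). There Gata3 made up 13.6 and 11.8 of 10000 counts, whereas no gate exceeded 1.43. Those few cells are described only, with no test.

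Zbtb16, the gene of PLZF, which marks innate-like T cells and ILC precursors, was highest in Trdc+ cells. It had a count in 15.5% (Wilson 12.6% to 18.9%) and 25.3% (19% to 32.8%) of them, in 1.12% to 3.72% of the Cd4+ and Cd8a+ gates, and in 5.01% to 10.4% of the CD3- gates. Stromal-marker cells had 9.30% in replicate 1 and 39.4% (26 of 66) in replicate 2. The shares of the CD3- gates, near that level in replicate 1 and below it in replicate 2, are not read as expression on their own. At full depth the Trdc+ share of replicate 2 too was below that of the deeper stromal-marker cells. Thinned to a fixed depth, Trdc+ cells had 14.4% and 23.4% and stromal-marker cells 5.29% and 14.3%. Zbtb16 made up 0.962 and 1.46 of 10000 counts in Trdc+ cells against 0.225 and 1.05 in stromal-marker cells. B/plasma-marker cells, at 0 of 11 and 1 of 29, had little. The Trdc+ sums held 117 and 151 CPM, above all other gates. The Ncr1+ sums held 57.3 and 49.5, the Il22+ sums 42.8 and 35.2, the Ccr6+ sums 30.9 and 18.5, the Cd8a+ sums 13.0 and 12.0 and the Cd4+ sums 8.49 and 4.73. No neighbours in that order overlapped over the 2 replicates.

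Trdc+ cells exceeded the other T-cell gates in Zbtb16 by 3.81 (SE 0.29, 14.0-fold, edgeR adjusted p = 3.34e-07), with 3.38 and 4.08 in the single replicates. Without stromal-, B/plasma- and ILC2-marker cells the value was 3.82. The mean of the CD3- gates exceeded that of the CD3+ gates by 0.73 (SE 0.20, adjusted p = 0.0115 in edgeR), and by 0.79 without the marker cells. The CD3+ mean joins unlike gates: the Cd4+ and Cd8a+ sums were below every CD3- sum, and the Trdc+ sums above every one. The Ncr1+ value of 1.17 over Ccr6+ cells (SE 0.35) did not pass (edgeR adjusted p = 0.0743).

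**Figure D1:**
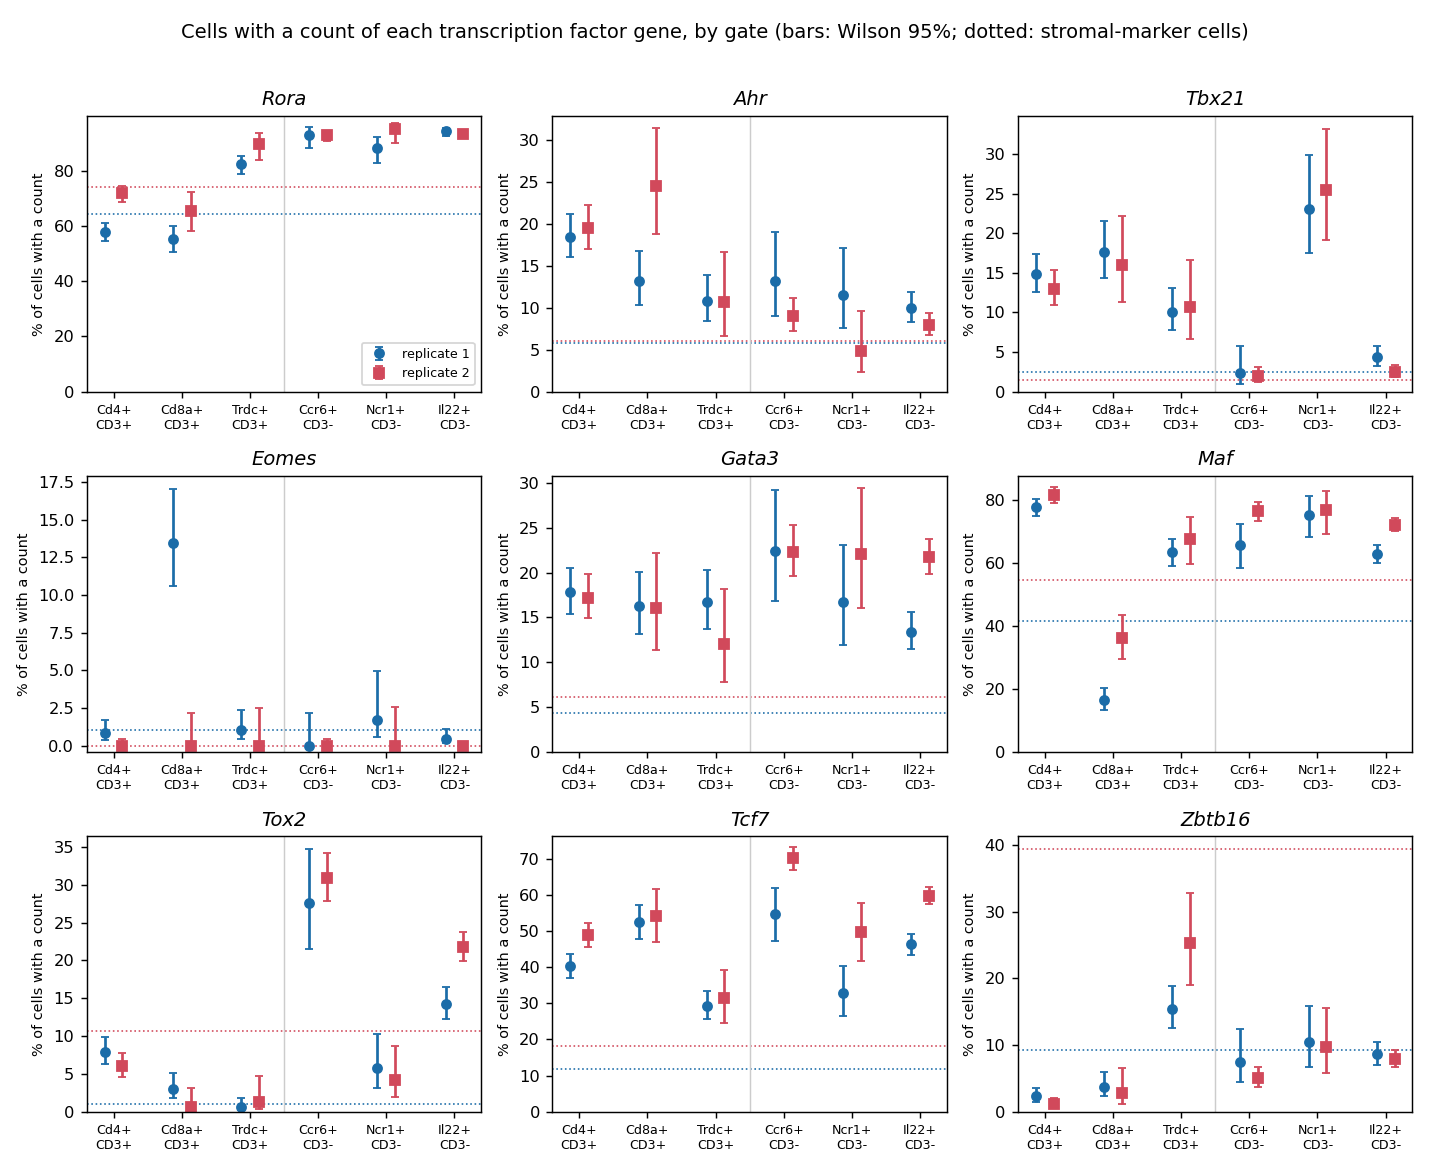
Percent of cells with at least 1 count of each of the 9 transcription factor genes (y axis) in the 6 gates (x axis), for replicate 1 (blue circles, reads) and replicate 2 (red squares, molecules), with 95% Wilson intervals and dotted lines for stromal-marker cells. Tbx21 is highest in Ncr1+ CD3- cells (23.1% and 25.5%), Tox2 in Ccr6+ CD3- cells (27.6% and 30.9%), Zbtb16 in Trdc+ cells (15.5% and 25.3%), and Eomes has counts in replicate 1 only.

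**Figure D2:**
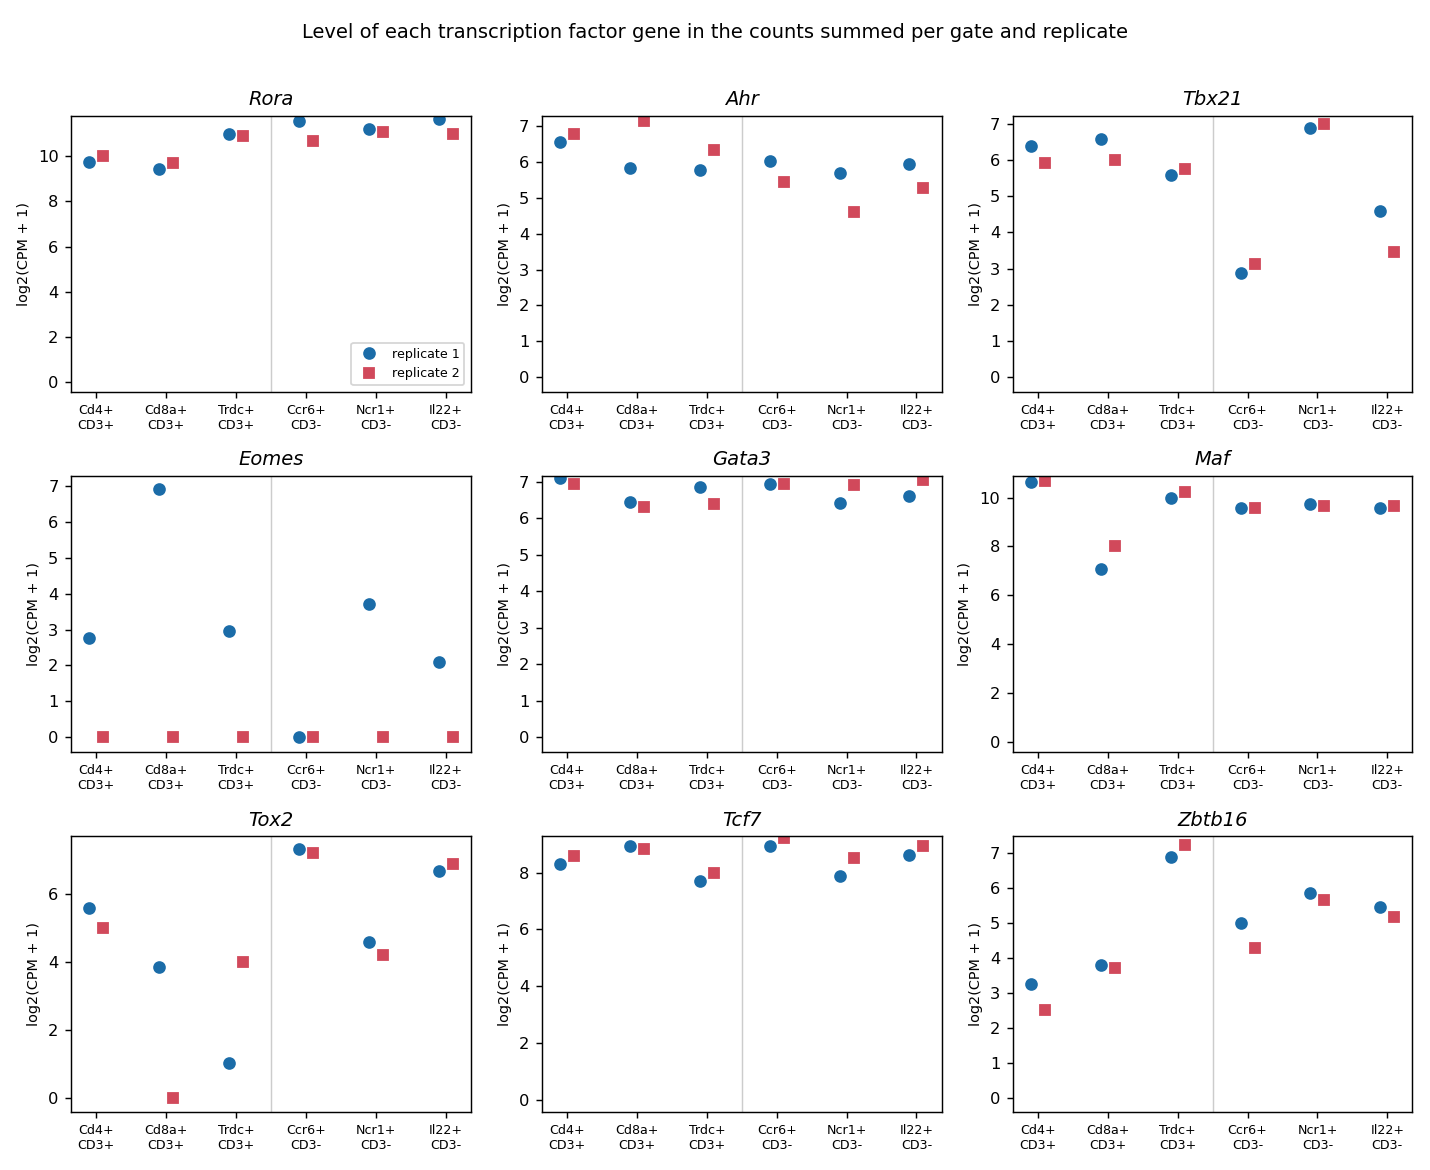
Level of each gene as log2(CPM + 1) (y axis) in the counts summed per gate (x axis), 1 point per replicate. The 2 points lie close together for most genes; Eomes is at 0 in every sum of replicate 2, and Tox2 in the Cd8a+ sum of replicate 2.

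The contrast between Ncr1+ and Ccr6+ cells compares 2 gates and not 2 arms of ILC3 alone, since NK cells and ILC1 bear NKp46 too. Of the 9 members, Tbx21 rose, Tox2 and Tcf7 fell, and 6 did not pass, where 4.21% of all 10512 genes tested were called by edgeR (adjusted p under 0.05), 2.16% higher and 2.05% lower. The median of the 9 was -0.0097, against -0.05 over all genes. Type 1 genes, those of interferon-γ-making and cytotoxic cells, rose together with Tbx21: 15 of 19 were higher and 0 lower in edgeR (17 higher and 0 lower at an unadjusted p under 0.05; 14 and 0 in DESeq2), with a median of 4.12. They included Klrd1, a chain of NK receptors (6.44, SE 0.79, edgeR adjusted p = 0.000178), the chemokine gene Xcl1 (5.58, SE 0.49, adjusted p = 1.81e-05), the granule gene Nkg7 (5.55, SE 0.48) and Il12rb2, an interleukin-12 receptor chain (5.26, SE 0.57). Klrd1 had 0 reads and 4 molecules in the Ccr6+ sums. Of 13 type 3 genes 8 were lower, 1 was higher (Csf2, 1.13, named after its value was seen) and 4 did not pass, with a median of -1.55. The cytokine genes Il17a (-5.25, SE 0.78) and Il17f (-5.17, SE 0.59), the tetraspanin gene Cd81 (-3.56, SE 0.37) and Nrp1, for neuropilin-1 (-2.17, SE 0.46), had the largest of these, and Il17a rests on 4 reads and 0 molecules in Ncr1+ cells.

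NK cells and ILC1 share NKp46 with ILC3, and their markers moved with Tbx21. The 8 genes listed as NK or ILC1 markers (Klrb1c, Klrd1, Gzma, Gzmb, Prf1, Itga1, Nkg7 and Xcl1) were all found in the Ncr1+ gate and summed to 20.5 and 15.4 counts per 10000, against 1.92 and 0.509 in Ccr6+ cells. Klrd1 was at 0 in the Ccr6+ cells of replicate 1 and Prf1 in those of replicate 2. At least 2 of the 8 were found in 45.1% and 44.1% of Ncr1+ cells. The T-cell gates had higher sums of the same 8 genes: 48.8 and 57.8 in Cd4+, 60.7 and 106 in Cd8a+ and 28.5 and 22.3 in Trdc+ cells. At least 2 were found in 57.9% and 62.5% of Cd4+, 70.2% and 73.7% of Cd8a+ and 28.2% and 23.3% of Trdc+ cells. The list therefore does not separate NK cells or ILC1 from T cells. The ILC3 markers summed to 8.70 and 15.7 in Ncr1+ cells, against 21 and 34.0 in Ccr6+ cells. Of 8 genes listed as T-cell markers (Cd3d, Cd3e, Cd3g, Trac, Trbc1, Trbc2, Cd5 and Cd6), the first 4 were at 0 by the gate. At least 2 of the 8 were found in 27.7% and 31.7% of Ncr1+ cells and in 14.4% and 4.88% of Ccr6+ cells. Cd5 and Cd6 were also at 0 in both gates of replicate 2, so the shares there count cells with both Trbc1 and Trbc2. In Ncr1+ cells of replicate 1 Cd5 was at 0 as well. The part of NK cells, ILC1 or T cells in the Tbx21 difference was not tested. In summed counts, fewer cells with a transcript and fewer transcripts per cell cannot be told apart.

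Interleukin-22 splits the Ncr1+ gate. Of the 98 Ncr1+ cells of replicate 1 with an Il22 count, 16.3% had Tbx21 (Wilson 10.3% to 24.9%), and of the 75 without, 32.0% (22.5% to 43.2%). In replicate 2 the shares were 23.9% of 67 cells and 26.9% of 78, with intervals of 15.3% to 35.3% and 18.3% to 37.7%. Rora followed the opposite order in replicate 1 (93.9% with and 81.3% without) and hardly differed in replicate 2 (95.5% and 94.9%). Maf was found in 81.6% and 66.7% in replicate 1 and in 79.1% and 74.4% in replicate 2. Tbx21 was thus present on both sides of the Il22 split in both replicates, and no test was made between cells of 1 sample.

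The Il22+ gate was compared with both other CD3- gates. Against Ccr6+ cells, 0 of 9 members were called by edgeR, where 0.894% of all genes were; 2 members, Tbx21 and Zbtb16, had an unadjusted p under 0.05, and DESeq2 called 0. Tbx21 was higher by 1.07 (SE 0.40, edgeR adjusted p = 0.520), with 1.74 in replicate 1 and 0.32 in replicate 2, and Tox2 differed by -0.49 (SE 0.33). All 94 genes called were higher in the Il22+ gate and 0 were lower (115 lower at an unadjusted p under 0.05, and 0 in DESeq2). Without stromal-, B/plasma- and ILC2-marker cells 9 genes were called, all of them among the 94. Between Ncr1+ cells and the Il22+ gate Tbx21 rose and Tox2 fell, 2 of 9 members against 3.73% of all genes (1.27% higher and 2.45% lower), and 15 of 19 type 1 genes were higher and 7 of 13 type 3 genes lower. Among other lymphoid regulators, Id3, an inhibitor of E proteins, was lower in Ncr1+ cells than in the Il22+ gate (edgeR adjusted p = 0.000127). It had 3 reads and 0 molecules in Ncr1+ cells, 1155 and 56 in the Il22+ gate and 21 and 13 in Ccr6+ cells. The Il22+ gate of replicate 1 also had the highest stromal marker sum (58.7 counts per 10000). Without marker cells this comparison called 191 genes in place of 392. The part of stromal-marker cells in the Id3 difference was not tested. Ikzf3, the gene of Aiolos, was higher in Ncr1+ cells (0.97, SE 0.26, adjusted p = 0.0468 in edgeR), while DESeq2 called 0 of the other lymphoid regulators higher.

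**Figure D3:**
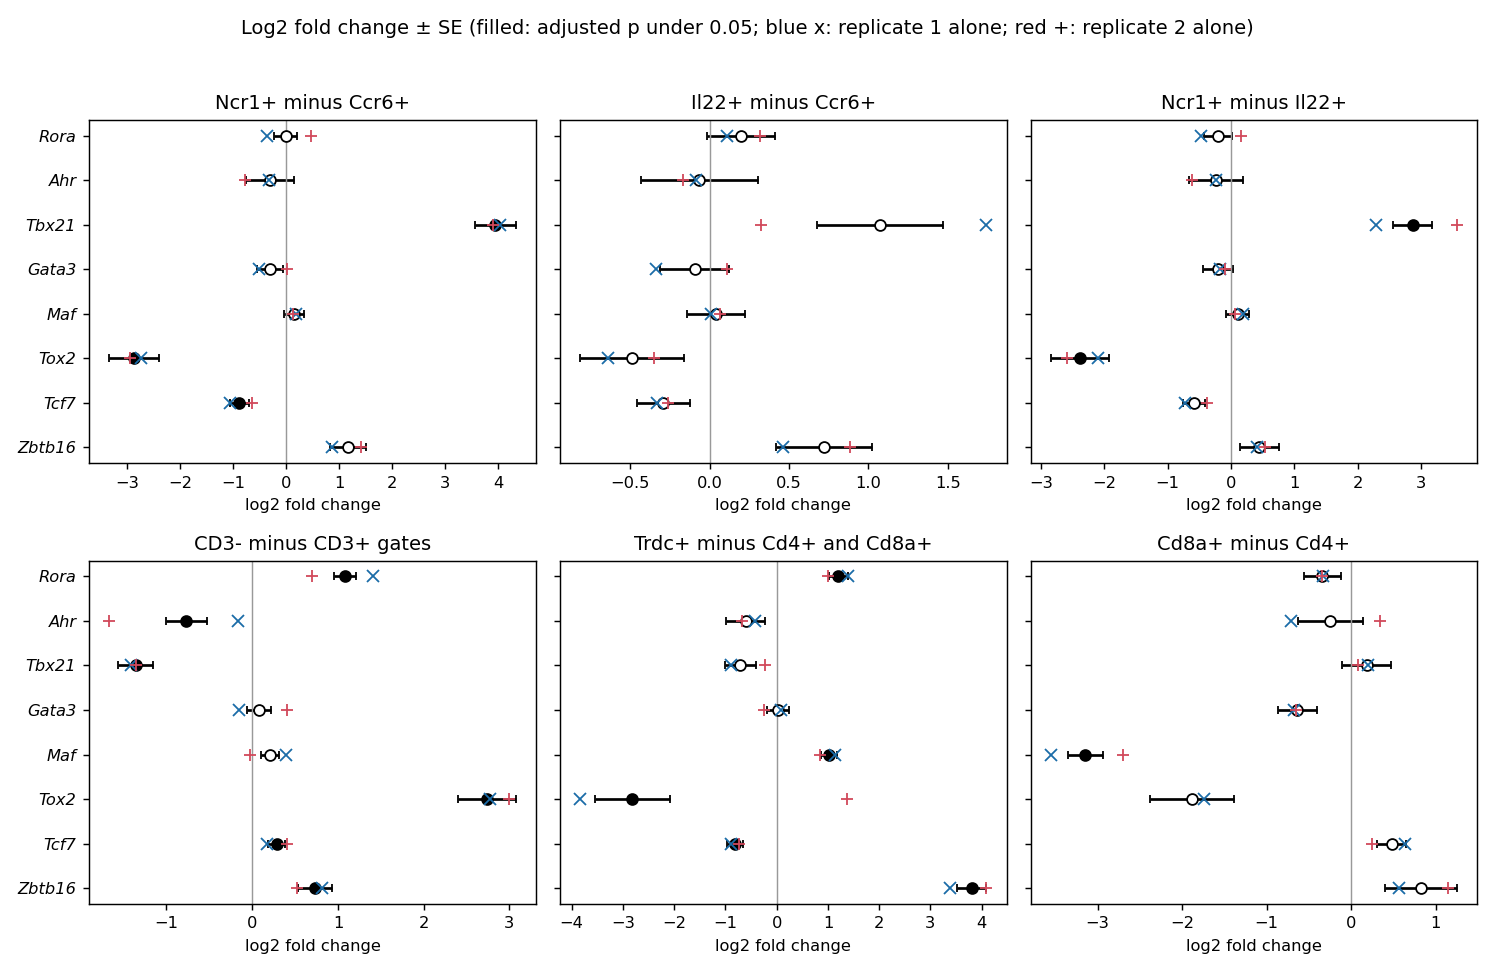
Log2 fold change of 8 of the 9 genes (y axis; Eomes is left out because its counts in replicate 2 are 0) in the 6 comparisons, as points with SE bars, filled where edgeR's adjusted p was under 0.05. Blue crosses give replicate 1 alone and red plus signs replicate 2 alone (not drawn for Tox2 in Cd8a+ against Cd4+ cells, where 1 sum is 0). The red sign of Tox2 in Trdc+ cells lies on the other side of 0, but it uses the same Cd8a+ sum of 0. Ahr in CD3- against CD3+ gates is spread from -0.17 to -1.67.

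Between the means of the CD3- and the CD3+ gates, Rora, Tox2, Tcf7 and Zbtb16 were higher and Tbx21, Ahr and Eomes lower, while Gata3 and Maf did not pass. That is 7 of 9 members, in a comparison where edgeR called 30.5% of all genes, 17.1% higher and 13.4% lower. The means join unlike gates: the Trdc+ sums of Zbtb16 lay above those of every CD3- gate, and the Ncr1+ sums of Tbx21 above those of every CD3+ gate. Of the 7 called, Tcf7 had the smallest difference (0.29, SE 0.10, edgeR adjusted p = 0.0384) and lost its call under 3 of 9 alternatives (adjusted p from 0.0127 to 0.202). The other lymphoid regulators leaned the other way: 12 of 23 tested were lower in the CD3- gates and 6 higher. Bcl11b, which holds T cells to their fate, had the largest difference (-4.30, SE 0.25, edgeR adjusted p = 2.21e-09), followed by Myb (-3.52, SE 0.88), Irf4 (-2.92, SE 0.21) and Gfi1 (-2.83, SE 0.42). In the Ncr1+ sums Myb had 0 reads and 0 molecules and Gfi1 1 read and 1 molecule. In replicate 2 Myb had 1 molecule each in the Cd8a+ and Trdc+ sums and 9 in the Ccr6+ sum. Of 15 tested relatives of the members 6 were higher and 1 lower. The one that was lower is Lef1, the nearest relative of Tcf7 (-2.23, SE 0.30, adjusted p = 1.98e-05 in edgeR), whose sign is opposite to that of Tcf7. Zbtb46 (3.41, SE 0.31), Maff, a small MAF protein gene (1.84, SE 0.12), and Zbtb20 (1.53, SE 0.17) led the others. Type 3 genes were higher in 10 of 13 cases, led by Kit, the stem cell factor receptor (3.07, SE 0.14), and lower in 1 (Il17a, -1.44). Il17a had 4 reads and 0 molecules in the Ncr1+ sums and 1817 and 223 in the Trdc+ sums. The Ccr6+ and Il22+ sums held 64 and 638 reads and 556 and 1974 molecules. Cd4+ and Cd8a+ sums held 141 and 51 reads and 253 and 10 molecules. Relative to the total of each sum, Ccr6+ and Il22+ cells had more Il17a than Cd4+ and Cd8a+ cells in both replicates. Type 1 genes were lower in 11 of 19 cases, with Gzma at -5.01 (SE 0.38), and higher in 3 (Il2rb, Klrb1c and Klrk1). Il17a and those 3 are named after their values were seen. Of 7 tested type 2 genes 4 were lower and 2 higher, and Il4 was the lowest of them (-5.97). Il4 had 0 counts in the Ccr6+ and Ncr1+ sums of both replicates and 5 reads and 3 molecules in the Il22+ sums. Its Cd4+ sums held 234 reads and 96 molecules, its Cd8a+ sums 9 and 0 and its Trdc+ sums 5 and 3.

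Within the T-cell gates the members drew 2 contrasts. In Trdc+ cells against the other T cells Zbtb16, Rora and Maf rose and Tcf7 and Tox2 fell, 5 of 9 members against 8.69% of all genes called by edgeR (6.01% higher and 2.67% lower). The Tox2 call (log2 -2.82, SE 0.73, edgeR adjusted p = 0.0204) rests on 2 reads and 4 molecules in Trdc+ cells. Replicate 2 alone had the opposite sign (1.38), but its Cd8a+ sum was 0, so that value depends on the prior count of 2 added before logs. Its Trdc+ sum, at 15.1 CPM, was below its Cd4+ sum, at 30.7. DESeq2 gave -1.50 and an adjusted p of 0.537 (6.54e-06 to 0.537 over 9 alternatives). Type 3 genes were higher in Trdc+ cells in 7 of 13 cases and lower in 0 (9 and 0 at an unadjusted p under 0.05; 7 and 0 in DESeq2), led by Il17a (4.46, SE 0.35) and Il17f (3.40, SE 0.42). The regulator Nfil3 (1.76, SE 0.16) rose as well. In Cd8a+ against Cd4+ cells Maf fell and Eomes was called on replicate 1 alone, 2 of 9 members against 1.87% of all genes (0.361% higher and 1.51% lower). Zbtb7b, the gene of ThPOK, which commits thymocytes to the Cd4 lineage, fell too (-2.50, SE 0.48, edgeR adjusted p = 0.00949), as did Runx1 (-1.51, SE 0.22) and Prdm1, the gene of Blimp-1 (-1.51, SE 0.28).

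Most cells carried several members at once. The median number of the 9 with a count was 3 in each CD3- gate of both replicates, and 2 in the T-cell gates except for 3 in Cd4+ cells of replicate 2. Of Ccr6+ cells, 10.3% and 8.30% carried 5 or more. Rora and Maf were found together in 63.2% and 71.4% of Ccr6+ cells, 69.4% and 73.8% of Ncr1+ cells and 60.4% and 68.3% of the Il22+ gate. In Cd8a+ cells the same pair was found in 10.7% and 24.6%. Maf and Tcf7 shared 35.6% and 53.8% of Ccr6+ cells and 24.3% and 37.9% of Ncr1+ cells.

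To set such numbers against the single genes, cells of a gate were split into 5 equal bins of depth, and the shares of both genes were multiplied within each. Where that product gave at least 5 cells, the number seen divided by the number given had a median of 1.02 over 134 pair and gate combinations in replicate 1 and 1.01 over 120 in replicate 2. Between 0.8 and 1.25 lay 107 and 111 of them. Pairs with a gene found in most cells cannot lie far above 1. In the Il22+ gate of replicate 1 all 47 cells with Tbx21 had Rora, and the ratio was 1.05. Such pairs are among those counted, so the median near 1 does not show whether members are expressed independently. Over the 114 combinations measured in both replicates, 1 lay below 0.8 in both and 1 above 1.25 in both.

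The lower one was Tbx21 with Tox2 in the Il22+ gate. Of 1082 cells in replicate 1, 47 had Tbx21, 154 had Tox2 and 3 had both, where the single shares give 6.97. Of 1752 cells in replicate 2, 44 had Tbx21, 382 had Tox2 and 3 had both, where they give 9.61. The higher one was Tbx21 with Tcf7 in Trdc+ cells, with 24 cells seen for 16.6 given (ratio 1.45) and 8 for 5.3 (1.51). These 2 were picked out after their values were seen, the numbers are small, and no test was made. In the Ncr1+ gate Tbx21 met Rora in 33 of 40 and 36 of 37 cells, Maf in 28 and 30, Gata3 in 6 and 8, and Tcf7 in 11 and 20, with ratios from 0.802 to 1.11.

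**Figure D4:**
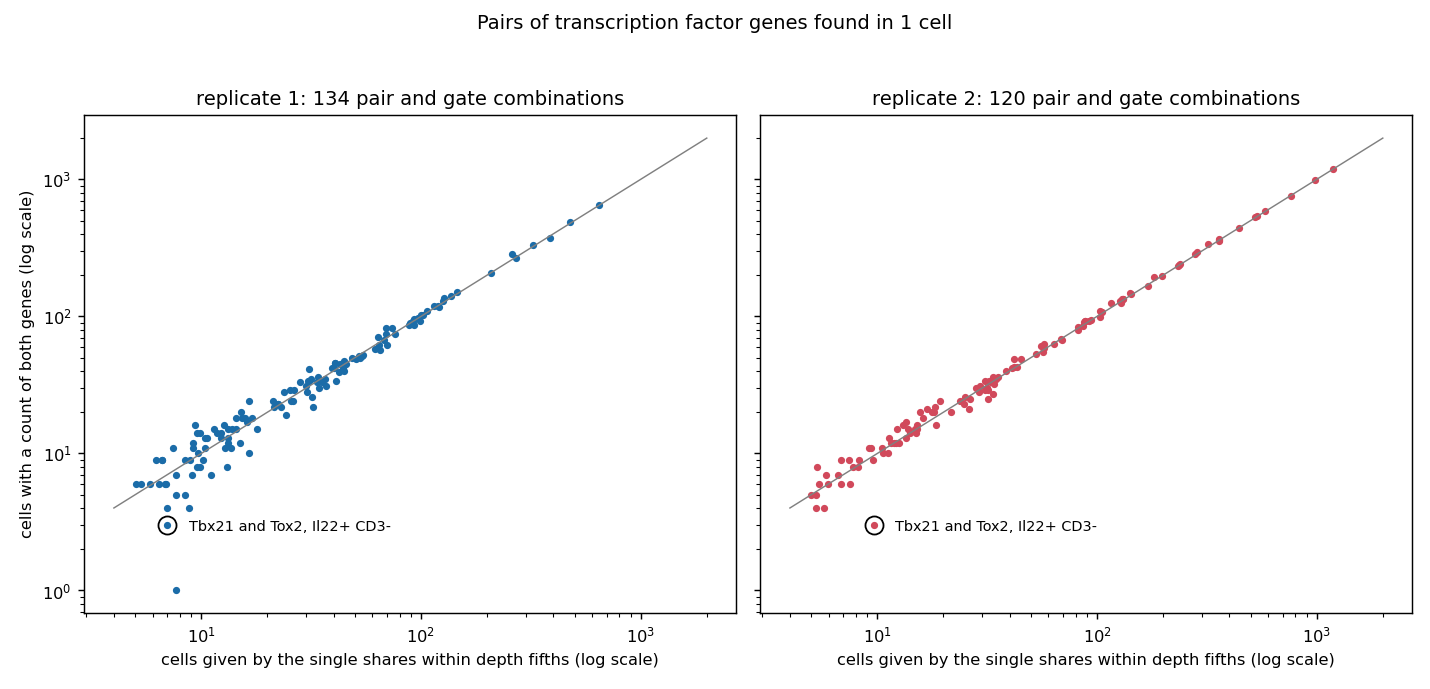
Number of cells with a count of both genes of a pair (y axis, log scale) against the number that the single shares give within 5 bins of depth (x axis, log scale), 1 point per pair and gate with at least 5 cells given. Points follow the grey line of equal numbers; the circled pair, Tbx21 with Tox2 in the Il22+ gate, lies below it in both replicates at 3 cells for 6.97 and 9.61.

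Across the 12 sums, the genes whose levels ran most like each member were taken by Pearson's r of log2 CPM centred per replicate, as a description only, since all 12 sums come from 2 samples. Rora ran closest to Dgat1 (r = 0.98), Junb and 4930532G15Rik. Tbx21 ran closest to AA467197 (0.96), Tmem81 and Bcl2l11, and Zbtb16 to Ppp1r14c (0.96), Emb and Hlcs. Maf ran closest to Runx1 (0.93), Il18r1 and Ago3, Tox2 to Zfhx3 (0.94), Reck and Rfx2, and Tcf7 to Ndufb10 (0.93), Trit1 and Rfc1. For Ahr the nearest were Rhno1 (0.95), Rpf1 and E330009J07Rik, for Gata3 Ube2l3 (0.93), Hlf and Wdr44, and for Eomes, on replicate 1 alone, Gm31266 (0.95), C1galt1 and Psme1.

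The remaining members lie on chromosomes 12 (Ahr, 35497974 to 35535038), 2 (Gata3, 9857078 to 9890034, and Tox2, 163203125 to 163324170), 8 (Maf, 115682942 to 115707794), 11 (Tcf7, 52252371 to 52283014) and 9 (Zbtb16, 48654297 to 48836222) of GRCm38. Rora, the longest at 734.5 kb, spans 68653786 to 69388246 of chromosome 9. For 6 of the 9 a gene is annotated on the opposite strand (Gm15511 at Rora, Gm48236 at Ahr, Gm33460 at Eomes, Gm13256 and 4930412O13Rik at Gata3, Gm15655 at Maf and A630014C17Rik at Tcf7). Without strand, reads of such pairs cannot be told apart. At Gata3 (9230102O04Rik) and Tcf7 (Gm26551) a gene is also annotated on the same strand, where strand alone would not separate the reads. For Tbx21, Tox2 and Zbtb16 no overlapping gene is annotated.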

How the data were processed

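Whole-transcriptome libraries and matching sample-tag libraries of 2 replicates were used. Per the file headers, the authors' matrices hold whole-number counts per cell and gene, reads in replicate 1 and molecules in replicate 2, from the BD Rhapsody pipeline versions 1.8 and 1.9.1 with a GRCm38 reference. Per the submitters' processing notes HISAT2 2.0.5 and Bowtie2 were used. The sources used here do not say whether the counting used strand or how reads with more than 1 match were handled.

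Cells of the study's tag were kept with at least 300 genes and under 20% mitochondrial counts: 5054 of 5302 and 4989 of 5010 cells. The authors' tag calls had set aside 815 and 1997 multiplets of 18635 and 19173 cells, and no doublet caller was run. 35 cell indices occur in both replicates. Counts were summed per gate and replicate, cells of more than 1 gate left out (1011122 to 5922749 reads and 265948 to 4556403 molecules per sum). The 12 sums were fitted in edgeR 4.0.16 (R 4.3.3) with quasi-likelihood tests, gate and replicate block as terms, TMM scaling, its filter on low counts and Benjamini-Hochberg adjustment over 10512 genes, 10 gate genes left out. The fit had 5 residual degrees of freedom, with a common biological coefficient of variation at 0.193. Same-numbered sums come from the same tagged sample and cartridge, and their deviations correlated at 0.181 to 0.555 over 15 gate pairs. On simulated counts for Ncr1+ against Ccr6+ cells (10158 genes), 25% of changes of 1 on the log2 scale and 62.9% of changes of 2 were recovered, with 3.41% false calls. DESeq2 1.42.0 was an alternative. Python 3.11.15, scipy 1.17.1 and matplotlib 3.10.9 gave shares and figures. Windows before start sites are RefSeq's, GRCm38.p6; 6 of the 9 members were matched.

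Named are all 9 members, the 3 genes most like each in level, and up to 4 genes per list with the largest change among those called. Lists were other lymphoid regulators, relatives of the members, type 1, type 2 and type 3 genes and the AHR pathway. Members and lists were chosen with earlier results of these data known.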

Additional observations from a re-analysis of the deposited data

How the results depend on the processing

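Over the alternatives, 514 member fold changes stayed on their side of the threshold with the same direction or moved by little, 19 lost their call, 5 gained one, 11 changed sign and 39 moved. The 11 leave out uncalled values that changed sign in a single replicate: of 102 values from 1 replicate alone, 9 differed in sign from the fit of both, 1 of them a called value (Tox2 in Trdc+ cells) and 8 not called (Gata3 in 4 comparisons, Rora in 2, Maf and Ahr in 1 each). Rora in Ncr1+ against Ccr6+ cells became 0.0036 with DESeq2 size factors and 0.0032 in DESeq2, and Maf in Ncr1+ cells against the Il22+ gate became -0.0097 with at least 2 counts of the gate gene. Ahr in the Il22+ gate against Ccr6+ cells became 0.0451 without marker cells. Gata3 became 0.1203 in that comparison and -0.0213 in CD3- against CD3+ gates with at least 2 counts of the gate gene. In Trdc+ against other T cells Gata3 became -0.0030 with no filter on low counts, -0.0190 without the replicate block, -0.1679 with at least 2 CD3 genes and -0.0039 without marker cells. Tox2 in Trdc+ cells ranged from -3.84 to 1.38 when 1 replicate was left out, where the 1.38 uses a Cd8a+ sum of 0 in replicate 2. The 2 alternatives on CD3 genes and marker cells were chosen after seeing the data.

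Without the replicate block, which pairs sums of 1 tagged sample, the genes called were 78, 0, 18, 1900, 296 and 14 in place of 443 (Ncr1+ against Ccr6+), 94 (Il22+ against Ccr6+), 392 (Ncr1+ against Il22+), 3210 (CD3- against CD3+), 913 (Trdc+) and 197 (Cd8a+ against Cd4+). With no filter on low counts they were 678, 225, 638 and 429 for the first 3 comparisons and the last. Il22+ against Ccr6+ cells gave 46 in DESeq2, 23 with at least 2 counts of the gate gene and 9 without marker cells, where Ncr1+ against Il22+ gave 191 and Cd8a+ against Cd4+ 117. Of the genes called between Ncr1+ cells and the Il22+ gate 34.2% were higher, but 45.4% in DESeq2, 57.1% without marker cells and 77.8% (14 of 18) without the replicate block. The cause of these moves was not tested. With 1 replicate no count can be given, since no residual degrees of freedom are left. When cells were thinned to a fixed depth, 52 of 108 member shares moved past their interval, against 8 with at least 2 counts of the gate gene and 0 with the stricter cell filter.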
